A study of Mus musculus with 32 samples.

Results

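The 2 mouse macrophage lines 3ABY721 and WT, both designated M-/- in the labels, were compared while growing continuously in CSF-1 (colony-stimulating factor 1). The comparison holds 4 of the 32 arrays of the series, chosen by line name and growth condition in their titles, 2 for 3ABY721 and 2 for WT, numbered I and II. Total RNA was read on Affymetrix Mouse Gene 1.0 ST arrays, and the deposited values are log2 signals for 19938 genes with a probe set of their own. The culture medium was α-MEM plus newborn calf serum, and recombinant human CSF-1 was present at 120 ng/mL. Each line is named after the CSF-1 receptor it carries, and both receptors have Tyr-721. What else sets the 3AB receptors apart is not spelled out in the sources used here. Each receptor comes with a line of its own, so receptor and line cannot be told apart, and nothing in the labels says whether a line is 1 clone. The same 2 lines starved of CSF-1 overnight (4 arrays), and the lines 3AB and Y721F grown in CSF-1 (4 arrays), which the series text calls Tyr-721-deficient, are used beside them. The series' design text calls the paired arrays biological replicates.

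Macrophages need CSF-1 to survive, divide and differentiate. It binds a receptor tyrosine kinase encoded by Csf1r, which then phosphorylates several tyrosines in its own cytoplasmic part. Each phosphorylated tyrosine serves as a docking site for a different set of signalling proteins, and Tyr-721 is the site best known for binding phosphatidylinositol 3-kinase (PI3K).

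Both lines had the signals of a macrophage, with a mean over 14 macrophage markers of 10.77 and 10.92 in the WT arrays and of 10.71 and 10.73 in the 3ABY721 arrays. Csf1r itself gave 13.41 and 13.28 in WT and 13.08 and 13.16 in 3ABY721, so the arrays of the lines did not overlap, but the difference of -0.23 (SE 0.12) was not called (limma adjusted p = 0.477). A probe set does not read single codons, so it says nothing of which receptor form was present. Spi1, the macrophage lineage factor PU.1, differed by 0.13 (SE 0.12). Markers of other cells stayed low in all 4 arrays, with list means from 4.88 to 4.95 for granulocytes and mast cells, from 4.84 to 4.88 for lymphocytes, from 5.50 to 5.61 for dendritic cells and from 5.55 to 5.74 for fibroblasts. None of these 4 lists had a called member. Osteoclasts arise from the same lineage. The mean over 12 osteoclast markers was 7.32 and 7.87 in WT and 8.05 and 8.13 in 3ABY721, with Car2 called higher. The median difference over the 12 was only 0.155, with 8 above 0 and 4 below. Car2 (2.115) and the uncalled Atp6v0d2 (2.205) were well above that median. Of the macrophage markers Mertk was called lower. Among the macrophage markers themselves 2 were near the low level of the other cells' markers in both lines. They were Cx3cr1, a chemokine receptor (6.06 to 6.24), and Aif1, a cytoplasmic calcium-binding protein (5.51 to 5.91).

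The arrays were not equally alike, which bears on every count that follows. The 2 3ABY721 arrays correlated at Pearson r = 0.995 across genes, and 234 genes differed between them by over 1.5-fold. The 2 WT arrays correlated at 0.987, and 1615 genes differed by over 1.5-fold. WT array II correlated at 0.992 and 0.993 with the 3ABY721 arrays, above its value with WT array I, and WT array I at 0.985 and 0.984. These are correlations across genes, which are not independent replicates. WT array I therefore stood apart from the other 3. For some lists the median difference is also given relative to each WT array alone. Differences of single genes use both WT arrays unless an omission is named.

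Grown in CSF-1, 51 of 19938 genes differed between the lines, 18 higher and 33 lower in 3ABY721. A gene was called where limma's Benjamini-Hochberg adjusted p was under 0.05 and the fold above 1.5. That is 0.256% of the genes tested, with 0.0903% higher and 0.166% lower, and 2376 genes (11.9%) had an unadjusted p under 0.05. Folds ran from 1.65 to 4.45 among the higher genes (median 2.08) and from 1.59 to 5.74 among the lower (median 2.03). In all 51 the 2 arrays of one line lay on one side of those of the other, which 42.7% of all genes did. The median difference over all genes was 0.01. After quantile normalization the split was 20 higher and 21 lower. With 1 array left out the count was 2 (WT I), 738 (WT II, 301 higher and 437 lower), 1 (3ABY721 I) or 11 (3ABY721 II). Car2 alone kept its call in all 4 omissions, and Vps13c, a lipid transfer protein, kept it in none.

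**Figure D1:**
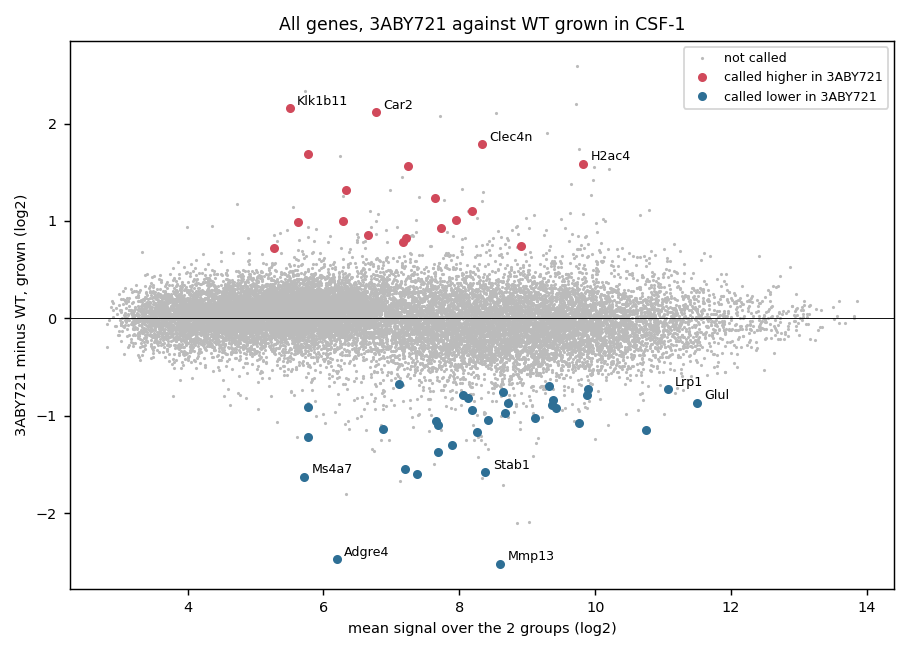
Difference between 3ABY721 and WT grown in CSF-1 (log2, vertical axis) against the mean signal of the 2 groups (log2, horizontal axis), 1 point per gene for 19938 genes. The 18 genes called higher and the 33 called lower are coloured, and some uncalled grey points lie as far from 0 as called ones.

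By size the lower genes were led by Mmp13, Adgre4 and Ms4a7, followed by Dnajb4. Mmp13, collagenase 3, which cuts fibrillar collagen, gave 9.74 and 9.98 in WT and 7.45 and 7.23 in 3ABY721. Both WT arrays were more than 2 log2 units above both 3ABY721 arrays, a difference of -2.52 (SE 0.39, 5.74-fold, adjusted p = 0.0135), the largest drop of all genes tested. Mmp19, another matrix metalloproteinase, fell from 8.26 and 8.11 to 7.13 and 7.12, a difference of -1.06 (SE 0.14, adjusted p = 0.00826). These are 2 of 15 measured genes of the matrix protease and urokinase list, and 0 were called higher. Of the 15, 7 lay above 0 and 8 below, and the median difference was -0.04 against 0.01 over all genes. Plau, the urokinase that activates plasminogen, gave 10.19 and 10.24 in WT and 9.23 and 9.34 in 3ABY721 without being called (adjusted p = 0.0717). Mmp12, macrophage elastase, gave 10.96 and 12.05 against 10.87 and 10.18 (adjusted p = 0.592). Serpinb2, an inhibitor of urokinase, gave 5.17 and 5.13 in WT but 8.76 and 6.08 in the 3ABY721 arrays, which were too far apart for a call (adjusted p = 0.127).

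Adgre4, also called FIRE, is an adhesion G protein-coupled receptor of the EGF-TM7 family found on macrophages. Its signal was 7.61 and 7.26 in WT and 4.94 and 4.98 in 3ABY721, a difference of -2.48 (SE 0.32, adjusted p = 0.00826). Its relatives were not called: Adgre1, the F4/80 antigen, gave 11.65 and 12.11 in WT and 11.92 and 11.78 in 3ABY721, and Adgre5 (CD97) 7.36 and 7.40 in WT and 8.51 and 8.03 in 3ABY721, with adjusted p = 0.964 and 0.233. Ms4a7, a 4-pass membrane protein of the MS4A family, gave 6.50 and 6.56 in WT and 4.98 and 4.82 in 3ABY721, a difference of -1.63 (SE 0.22, adjusted p = 0.00826). It was the 1 member called of 19 measured in that family. The members with high signals, Ms4a6c and Ms4a6d, differed by -0.52 and -0.47, and in both the arrays of the lines did not overlap, without a call (adjusted p = 0.333 and 0.254).

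The list of receptors for altered lipoproteins and dying cells held 2 more lower genes. Stab1, the scavenger receptor stabilin-1, gave 9.62 and 8.73 in WT and 7.65 and 7.54 in 3ABY721, a difference of -1.58 (SE 0.25, adjusted p = 0.0167). WT array I was 0.89 above WT array II in this gene, and with 1 array left out the difference ranged from -2.025 to -1.135. Mertk, the receptor kinase through which macrophages take up apoptotic cells, gave 8.27 and 8.20 in WT and 7.04 and 7.23 in 3ABY721, a difference of -1.10 (SE 0.17, adjusted p = 0.0135). Mertk's sister receptor Axl stood at 10.41 and 10.60 against 10.34 and 10.56, a difference of -0.06 (adjusted p = 0.931). Of 16 receptors and bridging molecules in the list, these 2 were called lower and 0 higher, 6 lay above 0 and 10 below, and the median difference was -0.15. Lrp1, a large endocytic receptor outside that list, gave 11.41 and 11.46 in WT and 10.59 and 10.82 in 3ABY721, a difference of -0.73 (SE 0.13, adjusted p = 0.0389).

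The other lower genes had varied roles. Slc7a8, a carrier of neutral amino acids (11.60 and 11.05 in WT, 10.09 and 10.27 in 3ABY721), and Glul, glutamine synthetase (12.12 and 11.75, then 11.09 and 11.05), were among the brightest, with differences of -1.15 (SE 0.19, adjusted p = 0.0197) and -0.87 (SE 0.16, adjusted p = 0.0404). Dnajb4, a co-chaperone of HSP70, fell by 1.60 (SE 0.23) and Pcdh7, a protocadherin, by 1.55 (SE 0.21), with adjusted p = 0.01 and 0.00826. Apbb2, an adaptor that binds the amyloid precursor protein, fell by 1.37 and B4galt6, which makes lactosylceramide, by 1.30. Psd3, an exchange factor for ARF6, fell by 1.14, and Zranb3, a helicase that acts at stalled replication forks, by 1.08. The transcripts Gm11545 and 6330407A03Rik fell by 1.17 and 1.22. The other 16 lower genes fell by 0.67 to 1.04. They include Crebbp, a histone acetyltransferase, Kmt2a, a histone methyltransferase, Med13, a Mediator subunit, Trp53bp1, a DNA damage response protein, and the cytoskeletal genes Dync1h1 (dynein heavy chain), Macf1 (an actin and microtubule linker) and Camsap2 (a microtubule minus-end protein). After quantile normalization Med13 kept its call, while Crebbp, Kmt2a, Trp53bp1, Dync1h1, Macf1 and Camsap2 lost theirs. With only the groups of one growth condition in the fit, all of these lost it.

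**Figure D2:**
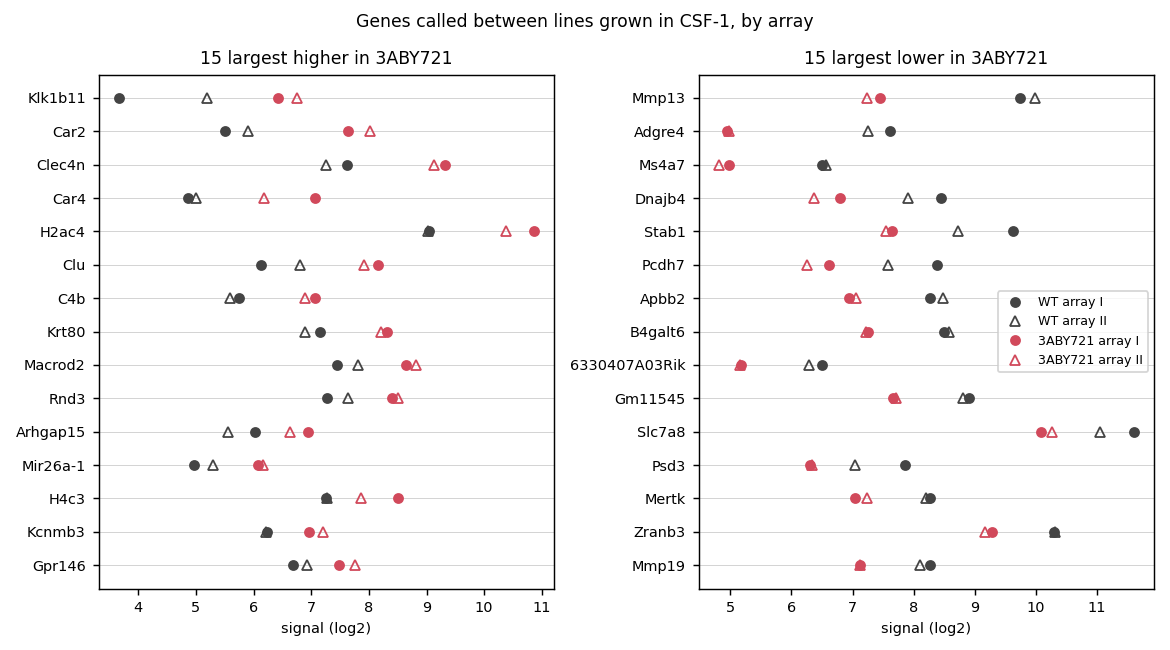
Signal (log2, horizontal axis) of the 15 called genes with the largest rise and the 15 with the largest fall in 3ABY721, 1 row per gene and 1 mark per array. WT arrays are dark and 3ABY721 arrays red, filled circles for array I and open triangles for array II. The 2 colours never overlap within a row, and the WT arrays lie far apart in Klk1b11, Stab1, Psd3 and Pcdh7.

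The higher genes included 2 carbonic anhydrases, enzymes that interconvert carbon dioxide and bicarbonate. Car2, the cytosolic carbonic anhydrase II, which osteoclasts use to make acid, gave 5.51 and 5.91 in WT and 7.63 and 8.02 in 3ABY721. The 3ABY721 arrays exceeded the WT arrays by at least 1.72, and the difference was 2.12 (SE 0.22, 4.33-fold), with the lowest adjusted p of the comparison (0.00265). Car4, a carbonic anhydrase anchored to the outside of the plasma membrane, gave 4.86 and 5.0 in WT and 7.06 and 6.18 in 3ABY721, a difference of 1.69 (SE 0.24, adjusted p = 0.00919). The other 14 measured carbonic anhydrases were not called. Car2 stands in the osteoclast marker list, where it was the 1 called gene of 12. The others include Calcr, the calcitonin receptor, between 4.83 and 5.07 in the 4 arrays, Ctsk, the collagen-cutting cathepsin K, between 12.08 and 13.17, and Acp5, tartrate-resistant acid phosphatase, between 7.56 and 8.92. Atp6v0d2, a subunit of the vacuolar proton pump, gave 6.80 in WT array I against 10.42 in WT array II and 10.68 and 10.95 in 3ABY721. Its difference of 2.21 (SE 0.76) was not called (adjusted p = 0.262).

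Clec4n, which encodes Dectin-2, a lectin that recognises fungal mannans, gave 7.62 and 7.26 in WT and 9.32 and 9.13 in 3ABY721, a difference of 1.79 (SE 0.32, adjusted p = 0.0343). It was the 1 called gene of 16 C-type lectin receptors, whose median difference was 0.22. Its neighbours in function Clec7a (Dectin-1) and Clec4e (Mincle) differed by 0.53 and 0.17 without a call. C4b, a component of the classical complement pathway, gave 5.74 and 5.59 in WT and 7.07 and 6.90 in 3ABY721, a difference of 1.32 (SE 0.18, adjusted p = 0.00826). It was the 1 called gene of 13 measured Fc receptors and complement components. Clu, the secreted chaperone clusterin, gave 6.13 and 6.81 against 8.15 and 7.91, a difference of 1.56 (SE 0.24, adjusted p = 0.0133).

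The largest rise among called genes, 2.16 (SE 0.38, adjusted p = 0.034), was that of Klk1b11, a tissue kallikrein, with 3.67 and 5.19 in WT and 6.42 and 6.75 in 3ABY721. The WT arrays differed by 1.52 from each other, and kallikrein 1 genes are near-identical copies whose signals a probe set may not keep apart, so this gene is uncertain. Krt80, a keratin, rose by 1.24, Macrod2, an ADP-ribosylhydrolase, by 1.11, Rnd3, a small GTPase that opposes RhoA signalling, by 1.01 and Arhgap15, a GTPase-activating protein for Rac, by 1.00. Smaller rises were those of Kcnmb3, a potassium channel subunit (0.86), the orphan receptor Gpr146 (0.83), Ace, angiotensin-converting enzyme (0.79), Avpi1 (0.74) and Rlbp1, a retinaldehyde-binding protein (0.73).

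From the histone clusters 2 genes were higher. H2ac4 gave 9.05 and 9.02 in WT and 10.86 and 10.38 in 3ABY721, a difference of 1.59 (SE 0.22, adjusted p = 0.00826), and H4c3 gave 7.26 and 7.27 against 8.51 and 7.87, a difference of 0.93 (SE 0.18, adjusted p = 0.049). Histone copies are near-identical, so signals of single genes are uncertain. This list of 22 was drawn up after these 2 calls had been seen. In it 19 genes lay above 0, 15 had both 3ABY721 arrays above both WT arrays, which 22.2% of all genes did, and the median difference was 0.30. These counts include the 2 called genes, and near-identical copies are not separate readings. The median was 0.29 in the same lines starved and 0.48 in 3AB against Y721F grown in CSF-1. Genes of DNA replication, which are transcribed in the same phase of the cell cycle, had a median difference of -0.07 over 17 genes. Of these 2 lay above 0 and 15 below, with 0 called and 1 at an unadjusted p under 0.05. Relative to WT array I alone their median was -0.205, and relative to WT array II alone 0.015. Whether the cell cycle has a part in the histone signals was not tested.

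Mir26a-1 was called from the locus of a microRNA hairpin, with 4.97 and 5.30 in WT and 6.08 and 6.17 in 3ABY721, a difference of 0.99 (SE 0.19, adjusted p = 0.049). Ctdspl, the gene in whose intron the hairpin is known to lie, differed by 0.03 (SE 0.13, adjusted p = 0.951). The probe set does not measure the mature miRNA, so the RefSeq sequences (GRCm38.p6) of both arms, at chr9:119031811-119031832 and chr9:119031850-119031871 on the plus strand, are shown for identity, with the seed, bases 2 to 8, in capitals.
mmu-miR-26a-5p: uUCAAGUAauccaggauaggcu
mmu-miR-26a-1-3p: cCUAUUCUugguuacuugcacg

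Promoters of the called genes were read from RefSeq (GRCm38.p6), which gave 49 promoters for 38 of the 51. The 250 bases before each start were searched on both strands for 3 motifs. TGANTCA, the AP-1 site, was in 2 of the 49 promoters, of Mmp13 and Ms4a7, both lower in 3ABY721, and in 6.75% of all 32851 promoters. GAGGAAGT, a PU.1 site, was in none of them and in 2.44% of all promoters. CCAAT was in 18 of the 49, from 17 genes, 9 higher and 8 lower, and in 33.8% of all promoters. None of the motifs contains another. A match is a stretch of letters, not a measured binding site. The promoters of 2 lower genes and of 1 higher gene with large differences are shown with the matches in capitals. They lie at chr9:7272264-7272513 (Mmp13, plus strand), chr19:11334696-11334945 (Ms4a7, minus strand, 1 of its 2 promoters) and chr13:23750838-23751087 (H2ac4, plus strand), each read 5′ to 3′ along the gene. The capitals are AP-1 matches in Mmp13 and Ms4a7 and 2 CCAAT matches, 1 on each strand, in H2ac4.
Mmp13: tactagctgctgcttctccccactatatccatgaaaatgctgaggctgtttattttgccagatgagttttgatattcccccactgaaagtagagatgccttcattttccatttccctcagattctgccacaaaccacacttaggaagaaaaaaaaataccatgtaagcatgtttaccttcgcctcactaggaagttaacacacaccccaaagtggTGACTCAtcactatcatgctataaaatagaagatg
Ms4a7: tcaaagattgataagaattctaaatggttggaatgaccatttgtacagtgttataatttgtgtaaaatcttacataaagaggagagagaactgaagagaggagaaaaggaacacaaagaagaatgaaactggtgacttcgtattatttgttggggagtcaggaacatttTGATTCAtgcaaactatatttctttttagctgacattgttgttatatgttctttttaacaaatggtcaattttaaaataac
H2ac4: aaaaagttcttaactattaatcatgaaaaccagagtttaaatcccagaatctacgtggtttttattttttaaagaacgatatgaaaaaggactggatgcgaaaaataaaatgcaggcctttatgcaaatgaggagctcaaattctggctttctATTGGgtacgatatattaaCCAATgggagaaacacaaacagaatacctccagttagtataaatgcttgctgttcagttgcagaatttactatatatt

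The called genes differed in length by direction. Gene span, from the first to the last base of the gene in RefSeq (GRCm38.p6), had a median of 102 kb in the 33 lower genes, 16.5 kb in the 18 higher genes and 17.7 kb in the genes not called. Of the lower genes 17, or 51.5%, spanned over 100 kb, against 11.5% of the genes not called. Apbb2, Dock4 (an exchange factor for Rac), Psd3, Pcdh7, Macf1 and Mertk are among them, while the short lower genes include Mmp19, Glul and Mmp13. After quantile normalization Dock4, Psd3 and Macf1 lost their call, while Apbb2, Pcdh7 and Mertk kept it. Spans were compared for the calls of the main fit only. The 295 genes lower in starved 3ABY721 had a median span of 65.6 kb, with 32.9% over 100 kb. In 3AB against Y721F grown in CSF-1 the directions hardly differed. The 928 higher genes had a median of 29.6 kb, with 17.9% over 100 kb. The 641 lower genes had 29.7 kb, with 20.5% over 100 kb. Whether span has a part in the calls was not tested.

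**Figure D3:**
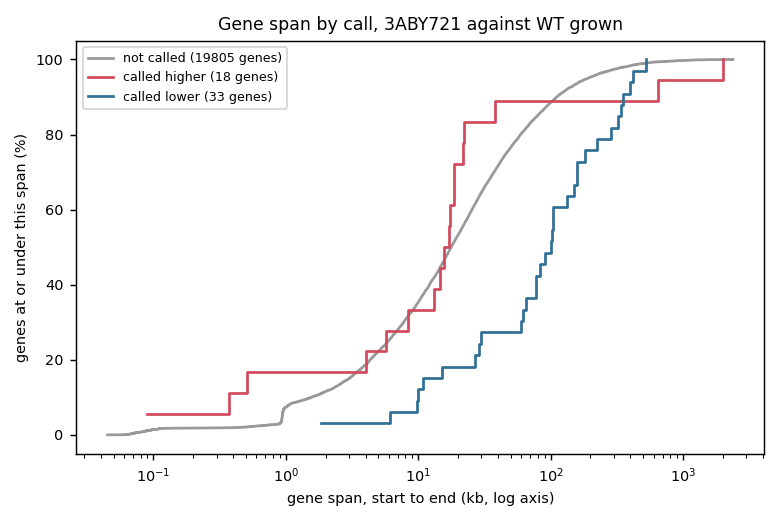
Cumulative share of genes (%, vertical axis) at or under a given gene span (kb, log axis) for genes called lower (33), called higher (18) and not called (19805 with a span). The curve of the lower genes lies to the right, with a median of 102 kb against 17.7 kb for the genes not called.

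Pathway lists had few called members. Of 34 pathway lists, 4 held any, and the other 30 had 0 called in either direction. The PI3K list is the one closest to Tyr-721. Its 16 measured genes had 0 called by limma, 6 at an unadjusted p under 0.05, and a median difference of -0.10, and 8 had both 3ABY721 arrays below both WT arrays, which 20.5% of all genes did. Pik3cg, the catalytic subunit p110γ, gave 10.02 and 9.71 in WT and 9.32 and 9.24 in 3ABY721 (-0.59, adjusted p = 0.112), and Inppl1, the lipid phosphatase SHIP2, gave 10.30 and 10.06 against 9.53 and 9.76 (-0.54, adjusted p = 0.176). Starved of CSF-1, both were lower in 3ABY721, by -0.75 (adjusted p = 0.0216) and -0.65 (adjusted p = 0.0484). The kinase genes Akt1 and Akt2 differed by -0.02 and 0.03.

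Among immediate early genes Myc, the growth-promoting transcription factor, stood out by size, with 10.55 and 9.58 in WT and 7.47 and 8.48 in 3ABY721. The difference of -2.09 (SE 0.45) was not called grown (adjusted p = 0.0717), while starved cells gave -2.47 and were called lower (adjusted p = 0.0183). The other 22 immediate early genes ran from -0.64 to 0.34, with Egr1 and Fos, targets of acute CSF-1 signalling, at -0.21 and -0.38. Of the sprouty genes, feedback inhibitors of ERK signalling, Spry1 differed by -0.005 and Spry2 by -0.09. Ccnd1, cyclin D1, gave 12.02 and 11.80 against 11.38 and 11.71 (-0.37, adjusted p = 0.799). Activation markers were uncalled as well: Tnf differed by 0.09, Il1b by 0.20, Il6 by 0.11 at a dim signal of 3.22 to 3.38, Nos2 by -0.18, Mrc1 by -0.47, Cd163 by 0.04 and Cd86 by 0.08. Arg1, arginase 1, gave 10.28 and 8.72 in WT and 8.72 and 6.86 in 3ABY721, so its arrays spread by over 1.5 within each line (adjusted p = 0.37). Csf1 itself differed by 0.01, Pdcd4 by 0.12 and Irf8, an interferon regulatory factor of macrophages, by -0.66 (adjusted p = 0.245).

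Several lists leaned one way without a single call, and in the first 3 described here WT array I stood apart from the other arrays. All 19 ribosome biogenesis genes lay below 0 with a median of -0.39. Their mean signal was 10.50 in WT array I and 9.72 in WT array II, against 9.79 and 9.61 in 3ABY721. Relative to WT array I alone the median difference was -0.85, and relative to WT array II alone it was 0.03. All 16 cholesterol synthesis genes lay above 0 with a median of 0.57, and 12 had both 3ABY721 arrays above both WT arrays. Their mean signal was 9.63 in WT array I, 10.45 in WT array II, and 10.58 and 10.62 in 3ABY721. Here too the median was 1.02 relative to WT array I and 0.14 relative to WT array II. Mvk, mevalonate kinase, came closest to a call at 0.84 (SE 0.18, adjusted p = 0.075), and Cyp51, a sterol demethylase, gave 9.04 and 10.26 in WT and 10.68 and 10.62 in 3ABY721. After quantile normalization these 2 lists kept their direction, with medians of -0.33 and 0.62.

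The 3 C1q chains, the recognition part of complement, show the same array most plainly. Their mean signal was 9.97 in WT array I against 7.17 in WT array II and 7.62 and 7.57 in 3ABY721, so WT held both the highest and the lowest array. C1qb, for example, gave 10.41 and 7.51 in WT and 8.20 and 8.02 in 3ABY721 (adjusted p = 0.679). Integrins, the adhesion receptors of the matrix, were different in that 9 of 17 had both 3ABY721 arrays below both WT arrays, with 0 called and 7 at an unadjusted p under 0.05. Itga6, the laminin-binding α6 chain, gave 10.40 and 9.17 in WT and 8.32 and 8.43 in 3ABY721 (-1.41, adjusted p = 0.0617), and Itgb5 gave 11.33 and 9.90 against 9.42 and 9.33 (-1.24, adjusted p = 0.116). The antigen presentation genes had the wider spread in 3ABY721: Cd74, the invariant chain, gave 8.89 and 9.52 in WT and 11.12 and 10.39 in 3ABY721 (1.55, adjusted p = 0.105), and H2-Ab1 6.83 and 6.74 against 8.76 and 7.30 (adjusted p = 0.499).

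**Figure D4:**
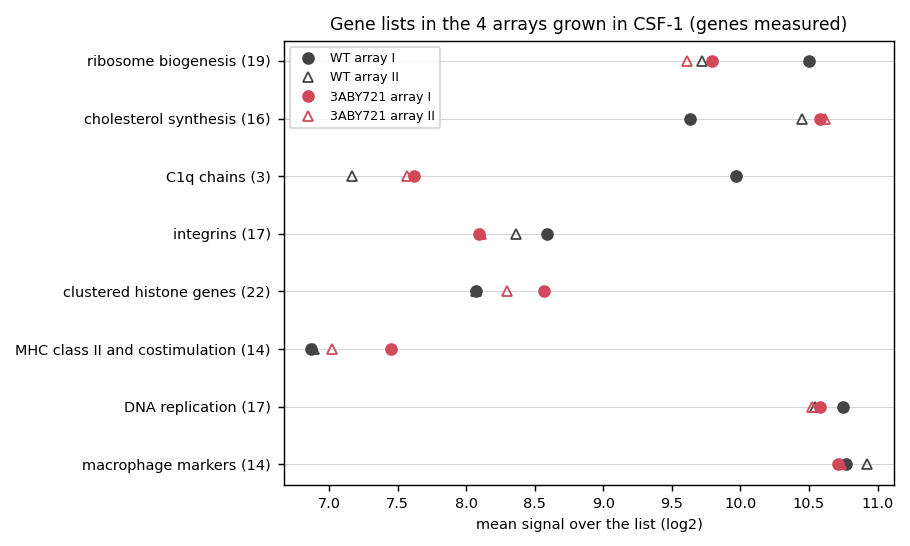
Mean signal (log2, horizontal axis) of 8 gene lists in each of the 4 arrays grown in CSF-1, with the number of genes measured in brackets. WT array I (dark filled circle) stands away from the other 3 arrays in ribosome biogenesis, cholesterol synthesis and the C1q chains, while in integrins both WT arrays lie above both 3ABY721 arrays.

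The same lines starved of CSF-1 showed whether a difference was also there without the growth factor. These arrays took no part in the grown contrast, although 1 fit gave the spread for both. Starved, 361 genes (1.81%) were called, 66 higher (0.331%) and 295 lower (1.48%) in 3ABY721, and 71 higher and 117 lower after quantile normalization. Without WT I, WT II, 3ABY721 I or 3ABY721 II of the starved arrays the count was 18, 166, 37 or 18. All 51 genes called in grown cells had the same sign there, but the share of all genes with the same sign was not counted. Of the 18 higher genes 8 were called again, which is 44.4% of them and 12.1% of the 66, and of the 33 lower genes 26, which is 78.8% of them and 8.81% of the 295. The median difference of the higher genes was 1.06 grown and 0.70 starved, and that of the lower genes -1.02 and -0.84. Selection by the grown arrays favours larger values there.

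Mmp13 was at 10.85 and 10.27 in starved WT and at 7.23 and 7.12 in starved 3ABY721, a difference of -3.39 (SE 0.39, adjusted p = 0.00113), beside -2.52 when grown. Mertk, at 9.78 and 10.26 against 8.44 and 8.27, and Ms4a7, at 9.23 and 8.63 against 6.90 and 6.69, gave starved signals above the grown ones in every array of both lines, with differences between the lines of -1.67 and -2.14. Adgre4 gave 8.44 and 8.37 against 7.59 and 6.15, a difference of -1.54 (adjusted p = 0.0321). H2ac4, with 8.97 and 9.12 against 11.04 and 10.65, Clu (1.77), C4b (1.57), Krt80 (1.47), Car2 (1.35), Macrod2 (0.99), H4c3 (0.79) and Avpi1 (0.73) were higher in 3ABY721 again. Car4 at 0.67, Clec4n at 1.22 and Rnd3 at 0.20 were not called starved (adjusted p = 0.171, 0.064 and 0.602). Klk1b11 gave 6.91 and 6.52 in starved WT and 7.32 and 6.53 in starved 3ABY721, so its arrays overlapped there. A call in one condition and not in the other shows no difference by itself. When the difference between grown and starved was tested as a contrast, limma called 0 genes, with 680 (3.41%) at an unadjusted p under 0.05. Without grown WT array II the contrast called 39 genes.

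The other pair of lines, 3AB against Y721F, also differs by 3AB in name and is Tyr-721-deficient in both lines. It shares no array with 3ABY721 and WT. Grown in CSF-1, 1569 genes (7.87%) were called there, 928 higher (4.65%) and 641 lower (3.21%) in 3AB, and 24.1% had an unadjusted p under 0.05. Of the 18 genes higher in 3ABY721, 7 were higher in 3AB, 3 were lower and 8 were not called. Of the 33 lower genes, 4 were lower in 3AB, 9 were higher and 20 were not called. The sign was the same in 9 of the 18 and in 10 of the 33, and here too the share over all genes was not counted. Tested as a contrast, the differences of the pairs differed for 14 of the 18 higher and 28 of the 33 lower genes, against 7.99% of all genes (3.14% with the first difference higher, 4.85% with it lower, and 24.2% at an unadjusted p under 0.05). These genes were chosen by the first of the differences, which favours a large contrast, so the share over all genes is no yardstick for them. Without 3AB array I or II the second pair had 948 or 960 calls.

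Genes called the same way in both pairs were Klk1b11, C4b, Krt80, Clec4n, Rnd3, Arhgap15 and Car2, all higher, and Dnajb4, Apbb2, Gm11545 and Tm4sf1, a 4-pass membrane protein, all lower. Dnajb4 had nearly the same size in each pair, at -1.60 and -1.59. Rnd3 measured 1.01 in the first pair and 3.53 in the second; the group means were 5.22 in Y721F and, in WT, 3ABY721 and 3AB, 7.45, 8.46 and 8.75. Car2 measured 2.12 and 0.82, with group means of 5.71 in WT, 7.83 in 3ABY721, 5.25 in Y721F and 6.07 in 3AB. Thus 3ABY721 had the highest Car2 signal of the 4 lines.

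Genes called in opposite directions were led by Ms4a7, at -1.63 in 3ABY721 against WT and 3.89 in 3AB against Y721F. Its group means were 6.53 in WT, 4.90 in 3ABY721, 4.45 in Y721F and 8.34 in 3AB. Mertk measured -1.10 and 3.09, Stab1 -1.58 and 2.31, and Clu 1.56 and -3.12. Mmp13 and Adgre4 were not called in the second pair (0.93 and 0.37), where Mmp13 stood at 7.09 and 8.02 and Adgre4 at 4.94 and 5.31, both under their WT means of 9.86 and 7.44. Over the 33 lower genes WT was the highest of the 4 lines in 28, and over the 18 higher genes it was the lowest in 10, while 3ABY721 was the highest in 9. WT is one of the groups that chose these genes, so its place at an end is in part set by that choice.

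**Figure D5:**
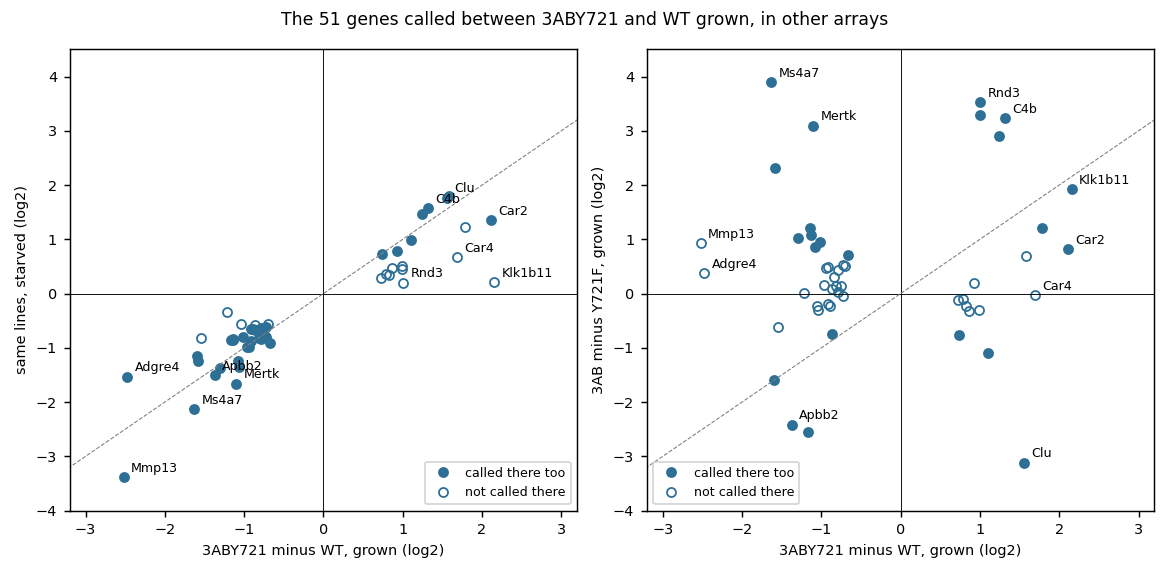
The 51 genes called in 3ABY721 against WT grown in CSF-1 (log2 difference, horizontal axis), against the same lines starved (left, log2) and against 3AB minus Y721F grown (right, log2). Filled points were called in the second comparison too, and the dashed line marks equal differences. All 51 points on the left lie in the lower left or upper right, whereas 19 of 51 on the right do.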

How the data were processed

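Total RNA was hybridised to 1-colour Affymetrix Mouse Gene 1.0 ST arrays. The deposited values are log2 signals that the authors had already normalized between arrays. How background, summarization and normalization were done is not given in the sources used here. Of 35556 probe sets, 21789 name 1 gene, 1621 several and 12146 none in the platform annotation, and those naming 1 gene were kept, with the brightest probe set per gene, for 19938 genes.

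A cell mean for each of 8 steady-state groups (16 arrays, 2 a group) was fitted in R 4.3.3 by limma 3.58.1 (lmFit, then eBayes), leaving 8 residual degrees of freedom, and p-values were adjusted by Benjamini-Hochberg over all genes. Genes were called at an adjusted p under 0.05 and a fold above 1.5, the fold of the series' design text. With 2 arrays a group an exact permutation test could not reach that level, so the test rests on a spread shared over groups. The design text calls the arrays biological replicates but does not say what they were grown from. The p-values measure the spread between arrays of a group, pooled over the 8 groups and taken as equal in all. The SD across genes of the difference between paired arrays was 0.361 in grown WT and 0.211 in grown 3ABY721. Precision is limited by the number of arrays. The fit was tested on simulated data with the same spread in every group, which does not test it under the unequal spread of these arrays.

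Named genes were the 15 largest called rises and falls without overlap of arrays, up to 4 called members per list, the largest calls shared with the starved lines and the second pair, the largest differences of differences, and a fixed set around CSF-1 signalling. Others, such as list members near a call, were chosen after their values were seen. Members and lists (34 pathway and 6 cell type lists, 537 of 577 genes measured) were chosen with earlier results of these data known, and the histone, carbonic anhydrase, MS4A, EGF-TM7 and C1q lists after the calls were seen. List genes without a value were not analysed here.

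Alternatives were other sets of arrays in the fit, quantile normalization, leaving out dim genes, the mean of a gene's probe sets, a trended robust prior, the replicate block, each array left out, the unadjusted cutoff of the design text and, chosen after seeing the data, array weights. Same-numbered arrays of different groups gave 28 correlations of deviations from -0.328 to 0.283, of which 6 were over 0.1. The numbers were therefore not used to pair arrays. Between the grown and starved groups of the same line these correlations were 0.255 (WT), 0.28 (3ABY721), 0.12 (Y721F) and 0.042 (3AB). Whether grown and starved arrays of the same number share an origin was not tested.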

Additional observations from a re-analysis of the deposited data

Results flagged for a closer look

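For 56 named genes the line difference 3ABY721 minus WT differed from the line difference 3AB minus Y721F, both grown in CSF-1, when that difference of differences was tested with limma (adjusted p under 0.05). All values here are that difference of differences on the log2 scale, negative where the first difference was the lower one. Only genes that passed this test are listed, so the 56 is no rate. Of the 51 genes called between 3ABY721 and WT, 42 were among the 56, 14 higher and 28 lower in 3ABY721. The 51 were chosen by the first of the differences, which favours a large difference of differences. The 7.99% called over all genes is therefore no yardstick for them.

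Among genes lower in 3ABY721 the most negative values were those of Ms4a7 (-5.52), Mertk (-4.19), Stab1 (-3.89), Mmp13 (-3.45) and Adgre4 (-2.85). They were followed by Slc7a8 (-2.35), B4galt6 (-2.32), Psd3 (-2.22), Sash1 (-1.97) and Zranb3 (-1.94). Dock4 and Mgat5 were both at -1.41, Rttn at -1.38, Dync1h1 at -1.26, 6330407A03Rik at -1.23, and Vps13c and Crebbp both at -1.21. Med13 gave -1.15, Pde1b -1.13, Trp53bp1 -0.96, Glul -0.95, Camsap2 -0.89, Mmp19 -0.83, Kmt2a -0.82, Dtna -0.73 and Lrp1 -0.69. Apbb2 (1.05) and Gm11545 (1.38) had positive values, since both fell further in 3AB against Y721F.

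Among genes higher in 3ABY721, Clu had the largest value (4.68), then Macrod2 (2.20), Car4 (1.72), Avpi1 (1.50), Car2 (1.30), Mir26a-1 (1.29), Kcnmb3 (1.19), Gpr146 (1.05), Ace (0.89) and Rlbp1 (0.85). Rnd3 (-2.52), Arhgap15 (-2.30), C4b (-1.92) and Krt80 (-1.67) were negative, since they rose further in 3AB against Y721F.

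The other genes were not called between 3ABY721 and WT. Apart from Atp6v0d2, with 2.205 in the first pair and -2.545 in the second, their values come mainly from the second pair. Cybb, the catalytic subunit of the phagocyte oxidase, stood at -7.39, with a difference of -0.53 in the first pair and 6.86 in the second. Ms4a6c gave -6.67, Mmp8 -6.64, Ms4a6d -6.39, Ms4a6b -6.06, Irf8 -2.77, Cd86 -2.39 and Mrc1 -2.13. Positive values were those of Cyp11a1 (5.58), Tuba8 (4.97), Dusp4 (4.82), Scd2 (4.81), Atp6v0d2 (4.75) and Spry2 (1.52). Atp6v0d2 and Tuba8 were called in 3ABY721 against WT when WT array II was left out, at 4.02 (adjusted p = 0.000364) and 2.03 (adjusted p = 0.00101).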

How the results depend on the processing

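The 51 calls in grown cells became 11 with only the groups of one growth condition in the fit, 79 with a trended robust prior and 560 with the unadjusted cutoff, and 1 to 738 with 1 array left out. The count without WT array II was the highest, and 50 of the 51 genes kept their call there, all but Vps13c, while 2 kept it without WT array I (Car2 and Arhgap15), 1 without 3ABY721 array I (Car2) and 6 without 3ABY721 array II. The 361 calls in starved cells became 188 after quantile normalization, 787 unadjusted and 18 to 166 with 1 array left out. The 0 calls for grown minus starved became 340 unadjusted and 0 to 39 with 1 array left out, and this contrast could not be fitted within one growth condition. The 1569 calls in the second pair ranged from 948 to 2277 with 1 array left out. The 1593 calls for the difference of the pairs became 1000 within one growth condition, 3424 unadjusted and 845 to 2280 with 1 array left out, and their split of 627 higher and 966 lower became 710 and 723 after quantile normalization. The causes were not tested. With the replicate block the counts were 57, 320, 0, 1602 and 1610, within 1.5 times the counts without it. A similar count did not always mean the same genes. With all 32 arrays in the fit 65 genes were called in grown cells, but only 24 of the 51 kept their call. The fit within one growth condition kept 10 of the 51, and quantile normalization kept 38. The other settings, single-array omissions aside, kept 46 to 51. None of the 51 called genes reversed under any alternative. Their arrays did not overlap between the lines, so leaving out 1 array could not reverse them. Of the other alternatives, only quantile normalization and the mean of a gene's probe sets change the differences themselves. Reversals were seen only in uncalled genes. Spry1 reached 0.006 after quantile normalization. With 1 array left out, Csf1 ranged from -0.475 to 0.495, Cd163 from -0.09 to 0.17, Cd86 from -0.385 to 0.535, Cyp11a1 from -1.015 to 0.865, Egr1 from -0.935 to 0.515, Fos from -0.975 to 0.225, Nos2 from -0.825 to 0.465, Pdcd4 from -0.01 to 0.25, Spry1 from -0.13 to 0.12, Spry2 from -0.475 to 0.305, Scd2 from -0.035 to 1.495 and Tnf from -0.11 to 0.29. Dim signals, such as that of Il6, limit what these arrays can separate.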
